A study of Homo sapiens with 6 samples.

Results

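miR-103a-3p and miR-107 are near-identical microRNAs (miRNAs, short RNAs that guide the silencing of mRNAs) whose stem-loops lie in introns of the pantothenate kinase (PANK) genes. They were taken from both count tables as every row whose stem-loop name was mir-103a, with or without a copy number, or mir-107. This gave 2 of the 436 mature sequences with a read, 1 row for the stem-loops mir-103a-1 and mir-103a-2 together and 1 row for mir-107, and both rows are 3p arms. The 5p arms of these stem-loops were not analysed here. Total RNA of MDA-MB-231, a basal, estrogen-independent human breast adenocarcinoma line without ER, PR and HER2, was sequenced as small RNA libraries from 3 parental samples, grown as an adherent monolayer in medium with serum, and 3 spheroid samples, grown in suspension without serum. Spheroid culture is used to enrich cells with properties of cancer stem cells, but the cells were not sorted for them. Both groups are the same cell line, and no drug treatment is named for either. The supplements of the serum-free medium are not stated. Each condition has 1 count table without a column per sample, so the values have no replicate error, and it is not stated which of the 3 samples a table covers.

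Pantothenate kinases catalyse the first and rate-controlling step of coenzyme A synthesis, and the fatty acid and energy metabolism of a cell depends on that cofactor. miR-103 and miR-107 are known from other work to target DICER1, which processes miRNA precursors, and in mouse, caveolin-1, which bears on insulin sensitivity. They belong to the miR-15 and miR-107 group, whose members share the bases AGCAGC near the 5′ end. A miRNA finds its targets mainly through its seed, the bases from 2 to 8, so that miRNAs with 1 seed are taken to share many targets.

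The mature sequences are shown because a single base near the 3′ end is all that tells the miRNAs apart. In the lines below, taken from RefSeq, capitals mark the seed and the base that differs.
miR-103a-3p: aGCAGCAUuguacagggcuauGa
miR-107: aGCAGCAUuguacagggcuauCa
Both are 23 nucleotides long and differ by G22C, in which the base of miR-103a-3p comes first and positions are counted from 1 at the 5′ end. No other sequence in the tables had the same bases 2 to 8. Within the mature sequence, the miRNAs can therefore be separated only by base 22.

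The stem-loops are shown because they decide to which gene a read can be assigned. Capitals mark the mature 3p sequence (RefSeq, GRCh38.p14).
mir-103a-1: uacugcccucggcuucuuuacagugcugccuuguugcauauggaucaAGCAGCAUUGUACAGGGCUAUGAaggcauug
mir-103a-2: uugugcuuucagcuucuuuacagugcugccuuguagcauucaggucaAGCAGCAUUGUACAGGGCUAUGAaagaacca
mir-107: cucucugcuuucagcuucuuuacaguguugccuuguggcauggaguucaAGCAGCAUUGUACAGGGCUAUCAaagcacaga
Aligned end to end, mir-103a-2 and mir-107 were 85.2% identical, mir-103a-1 and mir-103a-2 were 80.8% identical, and mir-103a-1 and mir-107 were 79.0% identical. Although mir-103a-1 and mir-103a-2 make the same 3p miRNA, the closest pair of stem-loops over the whole length was thus mir-103a-2 with mir-107.

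Each stem-loop matched 1 place in GRCh37, the build of the annotation that the authors used. mir-103a-1 lies on chromosome 5 from 167987901 to 167987978 on the minus strand, in PANK3. mir-103a-2 lies on chromosome 20 from 3898141 to 3898218 on the plus strand, in PANK2. mir-107 lies on chromosome 10 from 91352504 to 91352584 on the minus strand, in PANK1. In the canonical transcript of each host gene (GENCODE), all with 7 exons, the stem-loop was in intron 5 on the strand of the host, with 0 annotated exons over it. The stem-loop began 419 bases into the intron in PANK3, 443 bases in PANK2 and 369 bases in PANK1, although these introns are 2235, 1620 and 4419 bases long, respectively. In RefSeq, the stem-loops mir-103b-1 and mir-103b-2 overlap the mir-103a pair on the opposite strand, and it is not stated whether strand was used in counting.

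miR-103a-3p was the more abundant of the pair in both cell types. It had 1178 of 539798 reads in the parental table and 2779 of 1553014 reads in the spheroid table. Per 1000000 reads of the table total (rpm), its parental level was 2182 (exact binomial 95% interval 2060 to 2310) and its spheroid level 1789 (1724 to 1857). It ranked 49 of 367 sequences with a read in parental cells and 56 of 424 in spheroid cells. Per table total, the level was thus lower in spheroid cells by more than the counting error. This depended on the scaling and on the reads counted.

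miR-107 had 335 reads in the parental and 722 reads in the spheroid table. Its level was 621 rpm (556 to 691) in parental cells and 465 rpm (432 to 500) in spheroid cells, at rank 82 and rank 90, respectively. The intervals of the tables did not overlap for either miRNA. They cover counting error only, since reads copied by PCR and not marked by a molecular identifier may stem from the same molecule. Together, the pair made up 0.280% of the parental table and 0.225% of the spheroid table. It is not given whether a read that matches both miRNAs is counted in each row, so this sum may hold some reads more than once.

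Neither miRNA was called different between spheroid and parental cells, since a call needed an adjusted p under 0.05 by Kal's Z-test and a fold over 2. The fold of miR-103a-3p, spheroid over parental, was 0.820 (interval 0.766 to 0.879), with an adjusted p of 5.41e-08. The fold of miR-107 was 0.749 (0.657 to 0.855), with an adjusted p of 4.795e-05. Both passed the p threshold and both stayed far from the fold threshold. The count of 0 of 2 called stands beside 13.8% of all 436 sequences called, 4.82% higher and 8.94% lower. At any fold, 37.8% of all sequences had an adjusted p under 0.05, and 22.7% were lower in spheroid cells. The test compares the reads of 2 tables, not the conditions.

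Against the other sequences, the folds of the pair lay in the middle of the range. Among the 183 sequences with at least 100 reads over both tables, the median fold was 0.925 and the quartiles were 0.720 and 1.29. Of these 183 sequences, 68 had a lower fold than miR-103a-3p and 55 had a lower fold than miR-107. Relative to the median, the log2 fold was -0.17 for miR-103a-3p and -0.30 for miR-107.

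**Figure D1:**
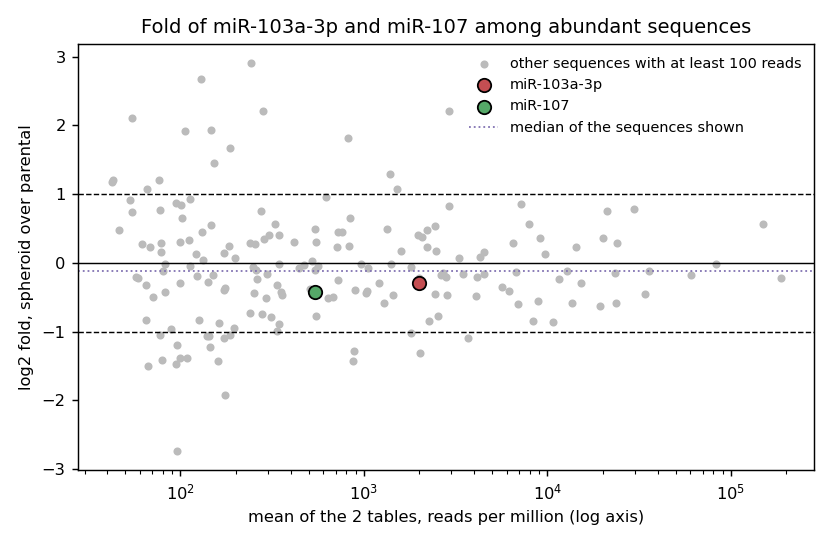
Log2 fold, spheroid over parental, against the mean level of the 2 tables in rpm (log axis) for the 183 sequences with at least 100 reads; dashed lines mark a fold of 2 in either direction and the dotted line the median. miR-103a-3p (-0.29) and miR-107 (-0.42) lie between the dashed lines, a little below the median of -0.11.

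The folds were under 1 with each scaling made from the reads in the tables. With edgeR's TMM factors they were 0.918 for miR-103a-3p and 0.839 for miR-107. They were over 1 only with the study's totals after trimming, which also count reads that are not in the tables. The study gives far more parental reads mapped to miRBase stem-loops than the parental table holds. For spheroid cells, its number is close to the table total. Its totals thus do not match the tables alike, and the folds made with them are given as values only. With the reads left after adaptor trimming, as the study totals them per condition, in place of the table totals, the folds were 1.81 for miR-103a-3p and 1.66 for miR-107, and the median fold of the 183 sequences was 2.04. With median-of-ratios factors the folds were 0.944 (adjusted p by Kal's Z-test 0.215) and 0.862 (adjusted p 0.0675), respectively. By exact reads alone the folds were 0.913 (adjusted p 0.146) and 0.899 (adjusted p 0.715 by the same test). Each of the scalings moves every sequence alike, so that the distance of both miRNAs from the median stayed as given above. With an assumed variation between cultures (coefficient 0.2), the adjusted p by edgeR's exact test was 1 for miR-103a-3p and 0.897 for miR-107.

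**Figure D2:**
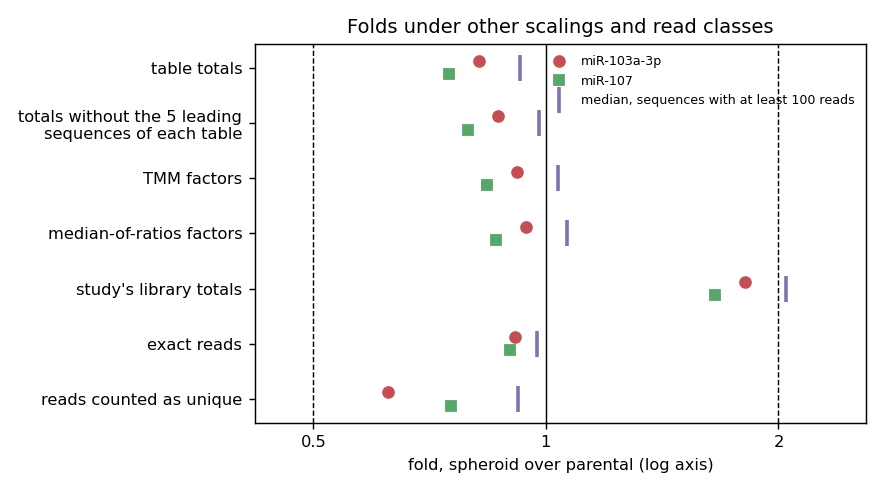
Fold, spheroid over parental (log axis), of miR-103a-3p (circles) and miR-107 (squares) and the median of abundant sequences (ticks) under each scaling and class of reads; dashed lines mark folds of 0.5 and 2. Both miRNAs lie left of the median in all 7 settings, and they cross to the right of 1 with the study's library totals (reads after trimming).

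The balance of the pair was then compared between the cell types. In parental cells there were 3.52 reads of miR-103a-3p (interval 3.11 to 3.98) for each read of miR-107, and in spheroid cells there were 3.85 (3.55 to 4.18). The scale of the tables cancels in this ratio, whereas reads counted for both miRNAs would not. The spheroid ratio was 1.09 times the parental one (0.942 to 1.27), a difference that did not pass Fisher's exact test (two-sided p = 0.228). The interval still holds a shift of the balance of up to 1.27 times.

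In contrast, the balance depended strongly on which reads were counted. Among reads equal to the annotated mature sequence (exact reads), miR-103a-3p had 621 reads and miR-107 had 26 reads in parental cells. In spheroid cells, these numbers were 1529 and 63. The ratio of exact reads was thus 23.9 (16.1 to 36.9) for the parental and 24.3 (18.9 to 31.7) for the spheroid table. miR-107 made up 4.02% and 3.96% of the exact reads of the pair, against 22.1% and 20.6% of all their reads. By exact reads alone, miR-103a-3p ranked 39 in parental and 36 in spheroid cells, whereas miR-107 ranked 116 and 115. Their order was the same in all reads and in exact reads, in both tables.

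A much larger part of the miR-103a-3p reads than of the miR-107 reads was exact. In parental cells, 52.7% of the miR-103a-3p reads were exact (interval 49.8% to 55.6%), and in spheroid cells 55.02% were (53.1% to 56.9%). For miR-107 it was 7.76% (5.13% to 11.2%) and 8.73% (6.77% to 11.0%), respectively. The members thus differed by 44.96 percentage points (40.5 to 48.7) in parental cells and by 46.3 points (43.4 to 48.9) in spheroid cells. Fisher's exact test on the reads gave p = 1.38e-56 and p = 4.54e-126 (2 comparisons, two-sided). Of the 183 abundant sequences, 126 had a lower exact share than miR-103a-3p and 47 had a lower one than miR-107 in parental cells. In spheroid cells, these numbers were 127 and 46. The tables do not give the length or the ends of the other reads.

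**Figure D3:**
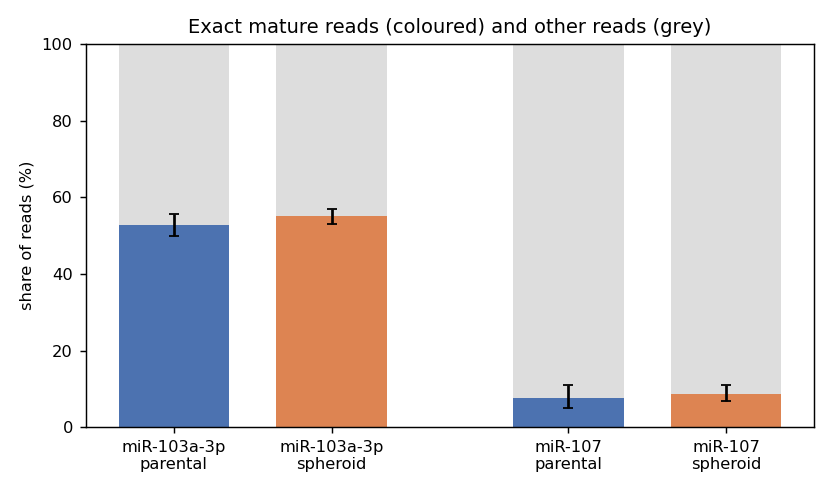
Share of reads (%) that equal the annotated mature sequence (coloured) and all other reads (grey) of miR-103a-3p and miR-107 in each table, with exact binomial 95% intervals. The exact share is 52.7% and 55.02% for miR-103a-3p and 7.76% and 8.73% for miR-107, with overlapping intervals between the tables.

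Between the cell types, the difference in exact share did not pass the test for either miRNA. The difference, spheroid minus parental, was 2.30 percentage points (-1.09 to 5.70) for miR-103a-3p, with an adjusted p of 0.429 by Fisher's exact test over the 183 sequences. For miR-107 it was 0.965 points (-2.88 to 4.28), with an adjusted p of 0.868. This was 0 of 2 beside 25.7% of the sequences tested. The intervals reach at most 5.70 points in either direction.

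The tables also count reads as unique. None of the 37 sequences with several stem-loops had an exact read counted as unique, while in all 278 sequences with 1 stem-loop and an exact read, every exact read was. Unique reads were therefore taken as those that match 1 stem-loop. Of the miR-103a-3p reads, 10 in parental and 18 in spheroid cells were unique, 0.849% and 0.648%. The rest match more than 1 stem-loop, and it is not given whether the unique ones belong to the copy in PANK2 or in PANK3. The level of miR-103a-3p therefore cannot be divided between its host genes. Among the 27 abundant sequences with several stem-loops, the median share of reads not counted as unique was 98.8% in parental and 98.9% in spheroid cells.

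Most miR-107 reads were unique, but a part was shared. In parental cells 277 of 335 reads and in spheroid cells 601 of 722 reads were unique, so that 17.3% (13.4% to 21.8%) and 16.8% (14.1% to 19.7%) were shared with another stem-loop. The difference in the unique share, spheroid minus parental, was 0.554 points for miR-107 (-4.13 to 5.65) and -0.201 points for miR-103a-3p (-0.947 to 0.337). Neither passed the test (adjusted p of 1 for both by Fisher's exact test, beside 3.28% of the 183 sequences called). Of 156 abundant sequences with 1 stem-loop, 129 had no shared read in parental cells, and 1, let-7c-5p, had a larger shared share than miR-107 in either table. With the unique miR-107 reads alone, a setting chosen after seeing the data, the ratio of miR-103a-3p to miR-107 was 4.25 in parental and 4.62 in spheroid cells.

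Among 23 abundant sequences with 1 stem-loop that differ by 1 base from another abundant sequence, miR-107 was the one whose differing base lies nearest to the 3′ end, at position 22. In the others, the differing base lies between positions 9 and 19. The shared share of let-7c-5p was 82.5% in parental and 74.9% in spheroid cells. In the remaining 21 sequences it was at most 11.3% in parental and 6.45% in spheroid cells. miR-10a-5p, which differs at position 12 from the mir-10b sequence, had 0.0751% and 0.0353% shared reads. miR-27a-3p, with 2 bases after the one that differs, had 2.29% and 2.10%. The partners also differ in level: let-7c-5p had 114 parental reads, and its partners let-7b-5p and let-7a-5p had 5759 and 21125, respectively. The part of position in the shared share was not tested.

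**Figure D4:**
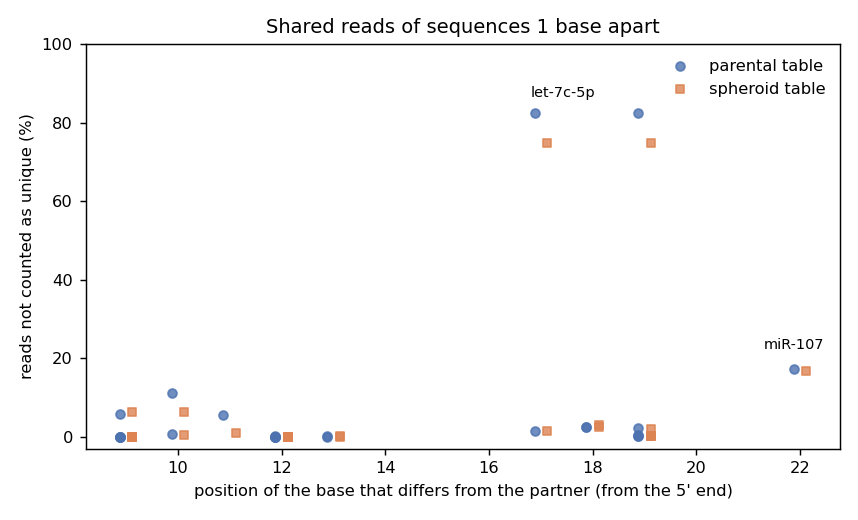
Share of reads not counted as unique (%) against the position, from the 5′ end, of the base that differs from a partner sequence 1 base apart, for 23 sequences with 1 stem-loop (a sequence with 2 partners appears at both positions). miR-107 sits alone at position 22 with 17.3% in the parental and 16.8% in the spheroid table, and let-7c-5p at 82.5% and 74.9%.

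The other members of the miR-15 and miR-107 group are shown because they carry the same 6 bases, shifted by 1 position against miR-103a-3p and miR-107. Capitals mark AGCAGC.
miR-16-5p: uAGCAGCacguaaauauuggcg
miR-15a-5p: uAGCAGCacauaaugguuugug
miR-15b-5p: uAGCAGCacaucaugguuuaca
miR-195-5p: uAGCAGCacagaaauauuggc
miR-424-5p: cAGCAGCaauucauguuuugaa
miR-497-5p: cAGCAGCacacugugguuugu
miR-503-5p: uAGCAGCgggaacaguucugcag
In these 7 sequences the 6 bases span positions 2 to 7, and in the PANK pair positions 1 to 6. Of all 436 sequences, 9 (2.06%) held AGCAGC within the first 7 bases, and these are the 9 of the group.

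None of the 9 group members was called (0 higher and 0 lower, beside 13.8% of all sequences), and 8 had a fold under 1, beside 57.9% of the abundant sequences. The study, by Kal's Z-test and a fold over 2, lists mir-15b and mir-503 as lower in spheroids, without naming the arm in that list. Elsewhere it names miR-15b-5p as deregulated in the spheroids of both lines it compares. Its qRT-PCR list holds this arm, and it reports similar expression by qRT-PCR and sequencing for the miRNAs chosen. Here miR-15b-5p had a fold of 0.735 and was not called. The other arm of mir-15b, miR-15b-3p, is not one of the 9. It had 104 and 144 reads and a fold of 0.481, and it was called lower. With the study's totals after trimming, 1 of the 9 folds was under 1, beside 7.10%, and miR-195-5p (fold 2.19) and miR-497-5p (2.599) were called higher. The median fold of the group was 0.813, against 0.925 for the abundant sequences. miR-16-5p, which restrains the cell cycle together with miR-15, was the most abundant, with 9078 and 21239 reads and a fold of 0.813 (interval 0.793 to 0.834). miR-15b-5p (fold 0.735) and miR-15a-5p (0.757) lay between the pair in level, at 1184 and 1180 rpm in parental cells. miR-497-5p, with 34 and 115 reads, was the one with a fold over 1, at 1.18 (0.796 to 1.78). miR-503-5p had 4 reads in each table. The pair took 12.6% of the group's reads in parental and 12.5% in spheroid cells.

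**Figure D5:**
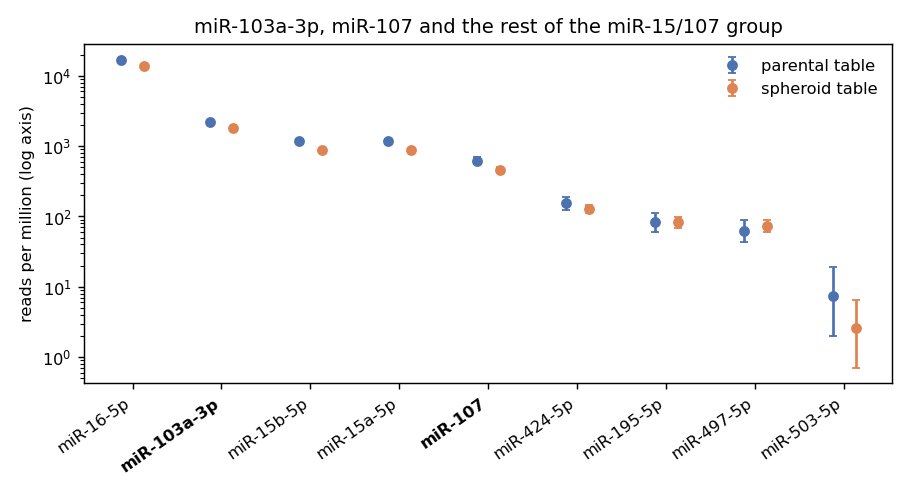
Level in rpm (log axis) of the 9 members of the miR-15 and miR-107 group in the parental and spheroid tables, with exact binomial 95% intervals for counting error. miR-103a-3p (2182 and 1789) lies next below miR-16-5p, and miR-107 (621 and 465) lies below miR-15a-5p and miR-15b-5p, in both tables.

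The pair was also set beside miR-33a, miR-33b and miR-378a, which likewise lie in introns of genes of lipid and energy metabolism (SREBF2, SREBF1 and PPARGC1B). Of 8 sequences in this list, 2 were called lower and 0 higher, beside 8.94% and 4.82% of all sequences. These were miR-33a-5p with a fold of 0.199 (0.128 to 0.304) and miR-33b-5p with a fold of 0.264 (0.205 to 0.339), both known to restrain cholesterol export. miR-378a-3p, at 7030 and 6406 rpm, had a fold of 0.911. All 8 folds were under 1 per table total, with a median of 0.659, beside 52.1% of all 436 sequences. With the study's totals after trimming, 2 of the 8 were under 1, beside 12.2%. miR-33a-5p (0.439) was then still called lower, miR-33b-5p (0.584) was not called, and miR-378a-3p (2.01) was called higher. The list was made with earlier results of these tables known.

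The sequences nearest to the pair in level over the 2 tables, by distance in log2 rpm, were miR-769-5p (0.0484), the mir-23b sequence (0.239) and miR-30c-5p (0.416) for miR-103a-3p. For miR-107 they were let-7e-5p (0.131), miR-331-3p (0.227) and miR-1307-3p (0.253). With 2 tables, nearness means only a like level and fold.

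As a limited check of the label, miRNAs abundant in MDA-MB-231 cells (miR-21, miR-22, miR-221, miR-222, miR-100 and miR-125b) had a share of 26.3% in the parental table and 23.1% in the spheroid table. This sum rests mainly on miR-21-5p (201710 and 173120 rpm), whereas miR-100-5p, for example, had 1408 and 1397 rpm. The epithelial miR-200 family with miR-205 took 72.2 and 114 rpm. In the parental and spheroid tables, endothelial miR-126 had 63.0 and 264 rpm and the fibroblast and mural markers had 122 and 359 rpm. Blood markers took 1.75% and 2.24% of the reads, nearly all of them from the mir-486 sequence (17507 and 22427 rpm). Of the other blood markers listed, miR-144-5p had 1 read in each table, and miR-451a and miR-223 had none. The part of such reads in the levels of miR-103a-3p and miR-107 was not tested.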

How the data were processed

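The authors trimmed the reads in CLC Genomics Workbench 7.0, kept lengths from 17 to 27 nucleotides, and used miRBase 19 and Ensembl noncoding RNA (GRCh37, release 57) for annotation. The deposited values are raw read counts per mature sequence, 1 table per condition, with 539798 and 1553014 reads. The tables were joined by sequence, and 387 of 436 sequences were named from RefSeq. Counts were divided by the table total, and in an alternative by the total reads after adaptor trimming that the study gives per condition. Kal's Z-test, as in the methods of the study, was adjusted by the Benjamini-Hochberg method over all 436 sequences. By exact or unique reads alone, it was adjusted over the 311 or 419 sequences with such a read, respectively. A table with 0 reads was set to a floor of 3 reads for calls. Intervals are Clopper-Pearson 95% intervals (Newcombe for differences of shares), and shares were compared by Fisher's exact test over sequences with at least 100 reads. The steps used Python 3.11.15, scipy 1.17.1, pandas 2.3.3, biopython 1.88 and matplotlib 3.10.9, with edgeR 4.0.16 and DESeq2 1.42.0 in R 4.3.3 for TMM and median-of-ratios factors and assumed variation. Of these steps, Kal's Z-test, the interval of the fold and Fisher's exact test were tried on simulated counts without variation between cultures. Stem-loops were placed on GRCh37 by exact match, and introns were read from GENCODE 44 as lifted to that build. No sample could be told apart within a table, so the p-values hold counting error only.

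Named were the members, sequences with the same seed, the miR-15 and miR-107 group, metabolic intronic miRNAs and the 3 sequences nearest in level to each member. The members and lists were chosen with earlier results of these data known. A planned comparison of arms was not made, since only 3p rows of these stem-loops met the rule.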

Additional observations from a re-analysis of the deposited data

How the results depend on the processing

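Of 56 values under other settings, 46 were scored the same, 6 moved and 4 reversed. A call rests on the fold of 2 as well as on the p. The filters on reads, Fisher's exact test and edgeR's exact test reuse the folds by table totals, so their direction could not change. Some of the 56 are numbers of sequences called, which have no direction, so the 46 do not measure stability. The p alone did not stay under 0.05. For miR-103a-3p it was 0.146 by exact reads, 0.428 by unique reads and 0.215 with median-of-ratios factors, and for miR-107 it was 0.715 by exact reads and 0.0675 with median-of-ratios factors (Kal's Z-test, adjusted). By edgeR's exact test it was 1 and 0.897 with a coefficient of variation of 0.2, and 1 for both with 0.4. The library totals count the reads left after trimming and not the reads in the tables, and they do not match both tables alike. With them, the folds turned to 1.81 for miR-103a-3p, 1.66 for miR-107 and 1.78 for their sum, and 145 sequences were called in all. By unique reads, the ratio of miR-103a-3p to miR-107 turned to 0.830 times (10 and 18 unique reads of miR-103a-3p). The summed fold, 0.804 by table totals, was 0.901 with TMM factors, 0.926 with median-of-ratios factors and 0.913 with exact reads. Of the calls, 28 of 58 were higher with TMM factors (log2 shift of 0.16 in each fold) and 29 of 57 with median-of-ratios factors (shift of 0.20), against 21 of 60. The calls in all numbered 21 with an assumed coefficient of variation of 0.2 and 0 with 0.4 (edgeR's exact test), where 22 had an unadjusted p under 0.05. Neither miRNA was called under any setting. No exact read of miR-103a-3p is unique, so the settings on exact unique reads gave no value for it. No paired analysis was possible because the tables hold no column per sample, and no sample could be left out. By table totals, the counting intervals of both folds exclude a 2-fold change, but the variation between cultures is unknown.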

Other observations

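Among the lists set beside miR-103a-3p and miR-107, some exact shares differed between the tables in sequences whose level was not called per table total. The exact share of miR-378a-3p was 49.0% in parental and 36.7% in spheroid cells (adjusted p of 6.58e-38 by Fisher's exact test over 183 sequences). That of miR-15a-5p was 41.8% and 29.8% (adjusted p of 1.66e-06), whereas that of miR-15b-5p was 90.8% and 87.9% (adjusted p of 0.175). In miR-497-5p it went the other way, from 14.7% (5 of 34 reads) to 42.6% (49 of 115 reads), with an adjusted p of 0.0177. These tests compare the reads of the tables, hold no variation between cultures, and the sequences were singled out after their values were seen. Of all 183 sequences tested for the exact share, 47 (25.7%) passed.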
